A study of Chlamydomonas reinhardtii with 12 samples.

Results

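The 150 genes described here were those of *Chlamydomonas reinhardtii* whose transcripts were lowest after high light relative to low light in the wild type while staying nearly level in the *phot* mutant. They were chosen from the counts themselves. Counts were divided by the library total and multiplied by 1000000 (CPM), and L was log2 of the group mean CPM plus 1. A gene was kept when both *phot* groups had a mean of at least 1 CPM and L differed by less than 0.5 between them, which left 8255 of the 17741 genes in the table. Of these, the 150 with the most negative difference in L between wild-type high light and low light were taken, 0.845% of the table.

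The wild type (WT) was strain CC-125. The *phot* mutant carries a knock-out of *PHOT1* made in earlier work, and only 1 such line was sequenced, without its complemented counterpart among these libraries. Both had been moved to Sueoka's high salt medium (HSM), which holds no acetate. They were kept at 5 µmol photons per square metre and second (low light, LL), and part of each culture then received 300 µmol photons per square metre and second for 60 min (high light, HL). RNA was sequenced from 3 libraries in each of the 4 groups, WT LL, WT HL, *phot* LL and *phot* HL. The study calls them biological replicates, and p-values here measure the spread between these libraries.

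*PHOT1* encodes phototropin, a blue-light receptor in which light-sensing LOV domains are joined to a protein kinase. Light-harvesting proteins of the LHCB and LHCBM families bind chlorophyll and carotenoids and pass the absorbed energy to photosystem II. Green algae make less of this antenna in strong light and more in dim light, partly through the abundance of its transcripts. When absorbed light exceeds what photosynthesis can use, part of it is released as heat, a process in which antenna proteins take part.

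Library totals ranged from 27136674 to 33906264 counts. *PHOT1* was counted 6074 to 8263 times in the WT libraries and 115 to 181 times in the *phot* libraries, which matched the labels. All values per library given below are CPM with TMM scaling (trimmed mean of M-values), which corrects for library composition. The TMM factors differed by genotype, from 0.66 to 1.00 in the WT libraries and from 1.09 to 1.23 in the *phot* libraries, and their part in the genotype differences was examined only by rescaling the libraries in other ways. Within WT they also differed by light, from 0.66 to 0.86 in LL and from 0.88 to 1.00 in HL. The drops in WT given below are therefore larger with TMM than with the library totals of the rule. All 150 members were among the 14251 genes above the expression filter, and none was at 3 counts or fewer in every library of any group. Within WT HL the libraries stood apart for these genes. Relative to the WT LL mean, the median member was at -2.93 in library A, -2.30 in B and -2.68 in C on the log2 scale, against -0.01 to 0.06 for all tested genes in the same 3 libraries. The median coefficient of variation in WT HL was 21.8% for members and 12.8% for all tested genes. In the other 3 groups it was 7.35% to 13.4% for members and 7.14% to 12.7% for all tested genes. Without WT HL library A the rule shared 137 of its 150 genes with the list used here, and without library B it shared 134.

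The levels that defined the members are given as a description. With TMM scaling, the median log2 change from LL to HL in WT was -2.94, between -6.99 and -2.08, against 0.05 for all tested genes. In fold terms WT LL exceeded WT HL by a median of 7.72-fold, from 4.24-fold to 125-fold. In *phot* the median change of the same genes was -0.16, between -0.68 and 0.55, against 0.03 for all tested genes. With edgeR's quasi-likelihood test at an adjusted p under 0.05, 150 of 150 were lower in WT after HL, beside 35.1% of all tested genes. In *phot* 32 of 150 changed, beside 58.9%. Of these, 27 were lower and 5 higher after HL, beside 27.7% and 31.2% of all tested genes. Every WT HL library was below every WT LL library in 150 of 150, beside 34.4%. The rule used both contrasts, so these counts restate the choice. The members just inside the rank limit, Cre08.g373916 and Cre15.g639150, had differences in L of -1.79 and -1.78, and the first genes outside it, Cre17.g708950 and Cre03.g164600, had -1.77 and -1.76.

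The members were then grouped by where the *phot* level lay between the WT levels. An index was set to 0 at the WT HL level and 1 at the WT LL level, on log2 of the mean TMM-scaled CPM plus 1, and the mean of both *phot* groups was placed on it. In 41 members *phot* was above WT LL, with an index more than 0.25 over 1. It was near WT LL in 47, within 0.25 of 1. A further 24 lay between, at 0.25 to 0.75. The *phot* level was near WT HL in 27, within 0.25 of 0, and below that in 11. So by this index *phot* was near or above the WT LL level in 88 members, and near or below the level that WT had after HL in 38. The index is relative to each gene's own change in WT, so near did not mean equal. In the 47 members near WT LL, mean *phot* LL was 0.597-fold to 2.33-fold of WT LL. In the 27 near WT HL, mean *phot* HL was 0.330-fold to 1.88-fold of WT HL.

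**Figure D1:**
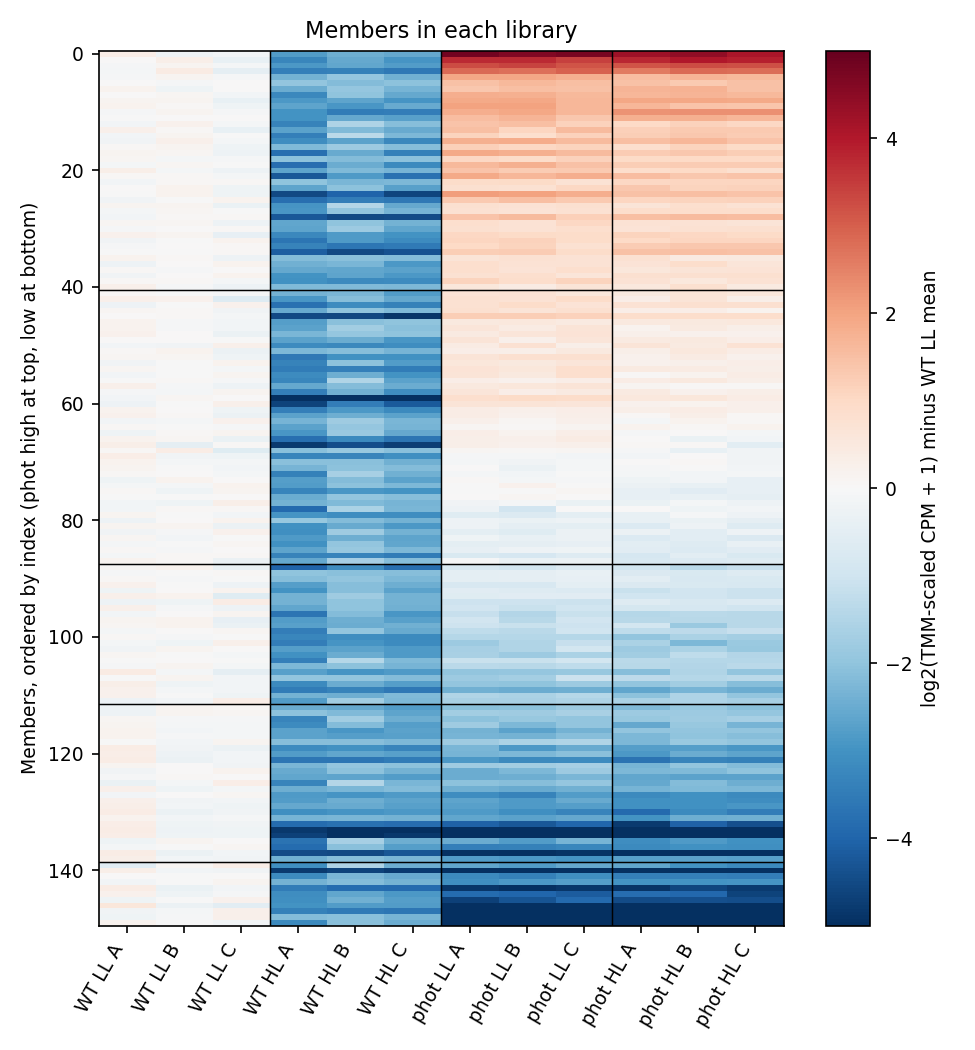
Each row is 1 of the 150 members and each column 1 of the 12 libraries. The colour is log2(TMM-scaled CPM + 1) minus the WT LL mean of that gene, with colours capped at -5 and 5, and black lines part the 5 index classes and the 4 groups. The 3 WT HL columns are blue throughout, while the *phot* columns run from red at the top (41 members above WT LL) to dark blue at the bottom (11 members below WT HL).

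The members made up 2.35% to 2.95% of all counts in the WT LL libraries and 0.420% to 0.585% in WT HL. In *phot* they made up 5.26% to 5.65% in LL and 4.82% to 5.41% in HL. The *phot* shares exceeded the WT shares in every library. The 41 members of the class above WT LL held most of that share, 3.45% to 3.88% in *phot* LL against 0.647% to 0.883% in WT LL. The 11 members of the class below WT HL went the other way, from 0.466% to 0.524% in WT LL to 0.0244% to 0.0377% in *phot* LL. In RNA from whole cultures, less RNA in every cell and RNA in fewer cells cannot be told apart.

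**Figure D2:**
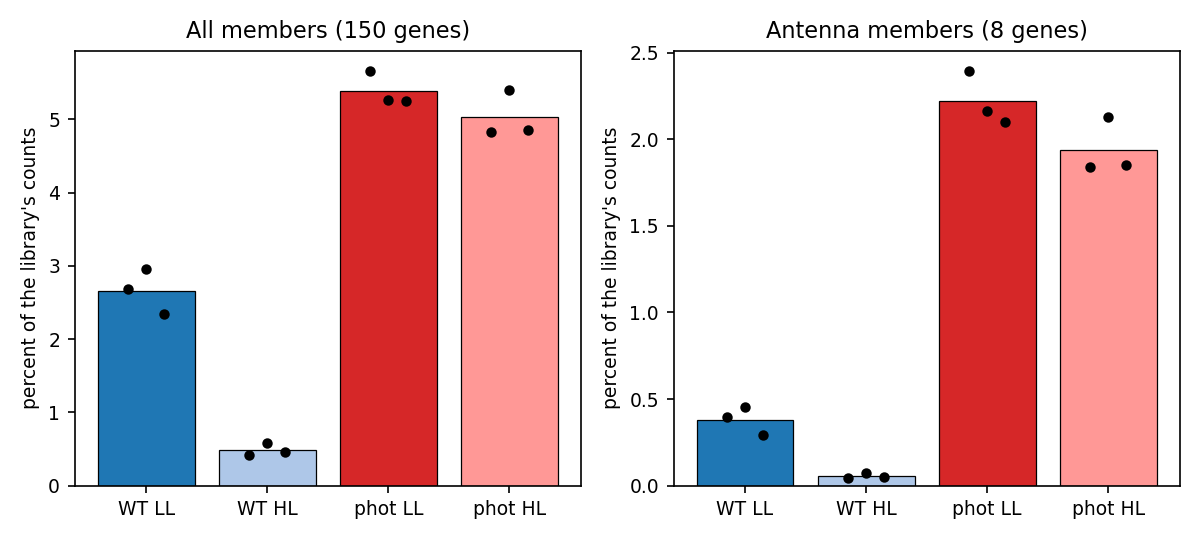
Bars give the mean share of library counts, in percent, of the 150 members (left) and of the 8 antenna members (right), and points are the 3 libraries of each group. All members together took 2.35% to 2.95% of counts in WT LL and 0.420% to 0.585% in WT HL, and in *phot* the share stayed between 4.82% and 5.65% in both lights.

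Antenna genes were the largest named group among the members. Of the 55 genes on the photoprotection list of the study, 9 were members (16.4%, against 0.845% of all genes), and 8 of these encode light-harvesting proteins of photosystem II. They were *LHCBM1*, *LHCBM2*, *LHCBM5*, *LHCBM6*, *LHCBM7*, *LHCBM8* and *LHCBM9*, which encode proteins of the major trimeric antenna LHCII, and *LHCB5*, which encodes the monomeric antenna protein CP26. Their WT LL level exceeded WT HL by 4.68-fold to 25.3-fold. In all 8 every *phot* library was above every WT library, in either light, and *phot* HL exceeded WT HL by 10.9-fold to 114-fold. Together they took 0.293% to 0.455% of the counts of WT in LL and 0.0461% to 0.0709% in HL, whereas in *phot* they took 2.10% to 2.39% in LL and 1.84% to 2.13% in HL. Several *LHCBM* genes are near-identical copies, and how reads that match more than 1 copy were treated is not given in the sources used here, so values of single copies are uncertain.

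*LHCBM2* (Cre12.g548400) ranked 5 by the rule. Its TMM-scaled CPM went from 1391, 1406 and 1285 in WT LL to 58.7, 57.3 and 45.6 in WT HL, and from 3234, 3221 and 3044 in *phot* LL to 2513, 2499.8 and 2505 in *phot* HL. The HL libraries of WT were far below all others, and the 3 *phot* LL libraries were the highest. The genotype difference averaged over both lights was 3.38 ± 0.09 (log2, SE, edgeR adjusted p = 4.61e-13). This contrast is orthogonal to the light changes the rule used, but it includes the WT HL level. The rule required that level to be low relative to WT LL, so the averaged difference is not independent of the choice of members. *LHCBM6* (Cre06.g285250) went from 1017, 1154 and 881 in WT LL to 44.1, 62.6 and 41.3 in WT HL, and from 4298, 4124 and 3608 in *phot* LL to 2773, 2894 and 2763 in *phot* HL (TMM-scaled CPM). No library of one genotype reached the range of the other, and the averaged difference was 3.90 ± 0.13 (edgeR adjusted p = 2.11e-12). Its change within *phot* lay at the edge of the rule's bound, -0.50 in L.

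*LHCBM7* (Cre12.g548950) had the largest averaged genotype difference of the antenna members. Its levels went from 184, 224 and 143 in WT LL to 18.0, 30.6 and 23.2 in WT HL, and from 2471, 2436 and 1979 in *phot* LL to 2541, 2928 and 2703 in *phot* HL (TMM-scaled CPM). Already in LL the *phot* mean was 12.5 times the WT mean, and the averaged difference was 5.24 ± 0.16 (edgeR adjusted p = 1.32e-12). *LHCB5* (Cre16.g673650) went from 229, 256 and 223 in WT LL to 31.2, 37.7 and 33.4 in WT HL, and from 2269.6, 2460.4 and 2116 in *phot* LL to 2114, 2275 and 2207 in *phot* HL (TMM-scaled CPM). The *phot* libraries were alike in both lights and 9.67-fold over WT in LL, with an averaged difference of 4.64 ± 0.09 (edgeR adjusted p = 8.8e-14).

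*LHCBM1* (Cre01.g066917), whose protein is needed for full heat dissipation in this alga, entered the list at rank 118. Its libraries went from 1687, 1951 and 1679 in WT LL to 342, 460.3 and 333 in WT HL, and from 6695, 6691 and 6051 in *phot* LL to 5128, 5829 and 5483 in *phot* HL (TMM-scaled CPM). Even the lowest *phot* library was above the highest WT library, and the averaged difference was 2.86 ± 0.11 (edgeR adjusted p = 1.04e-11). *LHCBM5* (Cre03.g156900) went from 224, 241 and 204 in WT LL to 23.0, 54.6 and 37.2 in WT HL, and from 788, 775 and 682 in *phot* LL to 709, 735 and 694 in *phot* HL (TMM-scaled CPM), with an averaged difference of 2.98 ± 0.16 (edgeR adjusted p = 3.92e-10). Among its WT HL libraries A was lowest and B highest.

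*LHCBM9* (Cre06.g284200) and *LHCBM8* (Cre06.g284250) are direct neighbours on chromosome 6, 47 bases apart. *LHCBM9*, known as a gene induced under nutrient stress, went from 12.3, 17.1 and 13.0 in WT LL to 0.782, 1.37 and 0.601 in WT HL, and from 51.0, 53.5 and 43.9 in *phot* LL to 41.9, 46.2 and 39.3 in *phot* HL (TMM-scaled CPM). *LHCBM8* went from 19.7, 18.7 and 17.8 in WT LL to 2.84, 3.07 and 1.84 in WT HL, and from 30.3, 31.6 and 28.4 in *phot* LL to 26.3, 30.0 and 27.9 in *phot* HL (TMM-scaled CPM). Both were lowest in WT HL and highest in *phot*, with averaged differences of 3.65 ± 0.14 for *LHCBM9* (edgeR adjusted p = 1.26e-11) and 2.06 ± 0.10 for *LHCBM8* (edgeR adjusted p = 1.11e-10).

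The photoprotection list held 12 genes of the LHCB and LHCBM families, a grouping made after the values were seen. With edgeR (adjusted p under 0.05), 11 of them were lower in WT after HL and 1 was higher. Among all tested genes these shares were 35.1% and 38.9%. In *phot* 3 were higher and 3 lower after HL, beside 31.2% and 27.7%. Averaged over both lights 12 of 12 were higher in *phot*, beside 46%. The rule had chosen 8 of these 12 for a low WT HL level, so the counts partly restate the choice. The 4 that the rule did not take were *LHCBM3*, *LHCB4*, *LHCBM4* and *LHCB7*. *LHCBM3* and *LHCB4*, which encode a further LHCII protein and the monomeric antenna protein CP29, had WT differences in L of -2.76 and -1.72, but their *phot* differences were 0.62 and 0.64. *LHCBM4* was lower in HL in both genotypes, by a log2 change of -5.54 ± 0.20 in WT and -1.04 ± 0.15 in *phot*. *LHCB7* was higher in HL in both, by 2.36 ± 0.12 in WT and 0.98 ± 0.11 in *phot*.

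**Figure D3:**
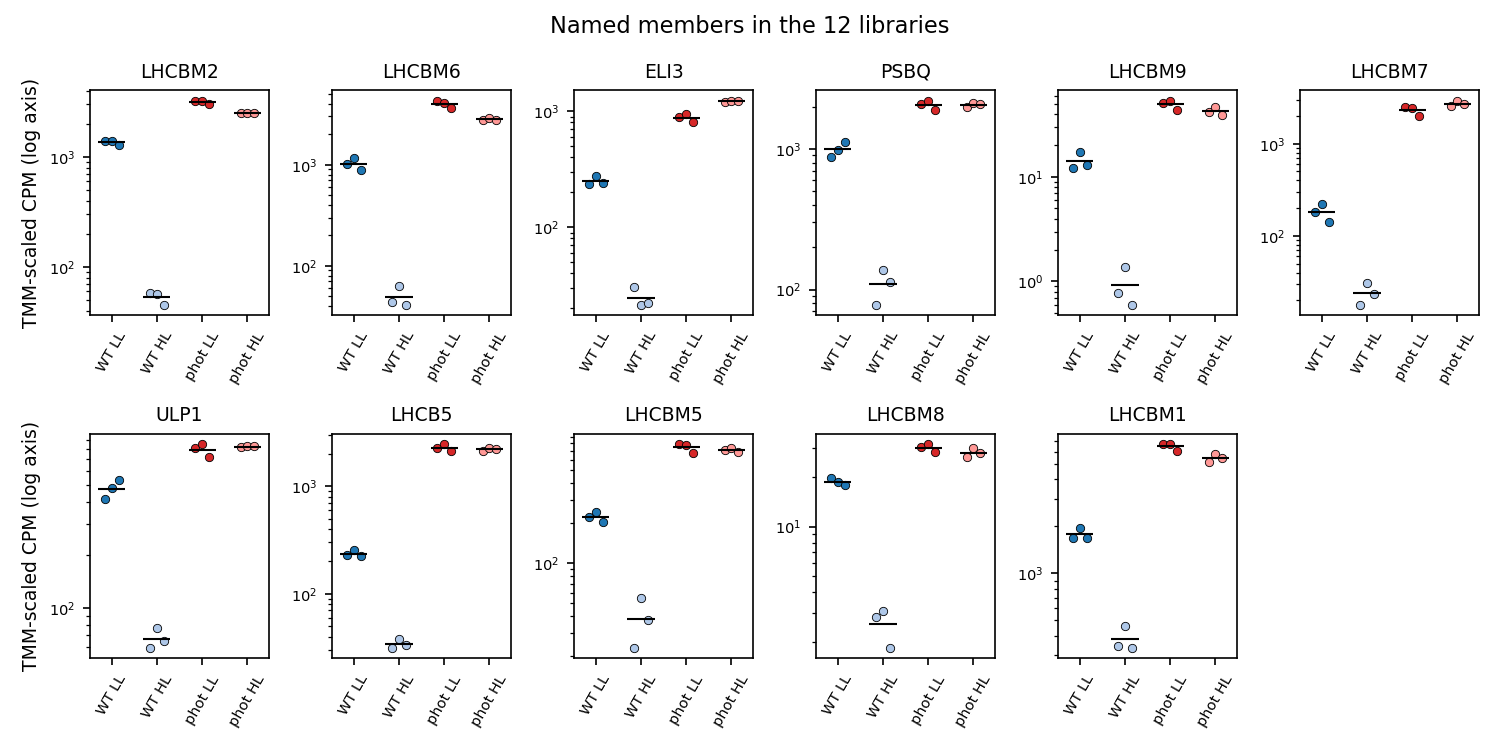
TMM-scaled CPM (log axis) of the 11 members that have a gene name on the study's lists, with 1 point per library, 3 libraries per group and a bar at the group mean. In each panel the 3 WT HL points are lowest and the 6 *phot* points lie above the 6 WT points. *LHCBM2*, for example, falls to 45.6 to 58.7 in WT HL and stays between 2499.8 and 3234 in *phot*.

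The remaining member on the photoprotection list was *ELI3* (Cre06.g278213), of the early light-induced family. Its libraries went from 238, 276 and 239 in WT LL to 30.5, 21.5 and 22.2 in WT HL, and from 894, 951 and 801 in *phot* LL to 1198, 1229 and 1232 in *phot* HL (TMM-scaled CPM). The *phot* libraries were all above the WT libraries, and HL was above LL within *phot*. The averaged difference was 3.72 ± 0.11 (edgeR adjusted p = 6.53e-13), and the change within *phot*, 0.47 ± 0.13, was close to the bound of the rule. Of the 73 genes on the study's list for the CO2-concentrating mechanism (CCM), 2 were members (2.74%, against 0.845% of all genes). *PSBQ* (Cre08.g372450) encodes an extrinsic protein of the oxygen-evolving complex of photosystem II. It went from 881, 983 and 1128 in WT LL to 78.1, 138 and 113 in WT HL, and from 2094, 2204 and 1898 in *phot* LL to 1988, 2107 and 2084 in *phot* HL (TMM-scaled CPM), with an averaged difference of 2.64 ± 0.13 (edgeR adjusted p = 1.33e-10). *ULP1* (Cre01.g051500) went from 419, 480.3 and 533 in WT LL to 59.1, 76.7 and 65.1 in WT HL, and from 808, 855 and 725 in *phot* LL to 824, 831 and 832 in *phot* HL (TMM-scaled CPM), with an averaged difference of 2.18 ± 0.09 (edgeR adjusted p = 2.93e-11). For both, the 6 *phot* libraries lay together and above all 6 WT libraries.

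Of 407 listed transcription factors, 4 were members (0.983%, against 0.845% of all genes). Their WT LL means were 21.0 to 40.4 TMM-scaled CPM, and they fell into 3 of the index classes. The HMG protein Cre16.g672300 went from 35.6, 39.7 and 46.0 in WT LL to 3.13, 8.97 and 4.92 in WT HL, and from 60.9, 56.8 and 62.3 in *phot* LL to 47.6, 48.8 and 50.9 in *phot* HL (TMM-scaled CPM). All its *phot* libraries were above the WT libraries, with an averaged difference of 1.83 ± 0.17 (edgeR adjusted p = 1.1e-07). Cre06.g304250, of the VARL family, which in volvocine algae includes the cell-fate regulator regA of *Volvox*, went from 28.9, 28.7 and 21.1 in WT LL to 2.35, 3.71 and 2.76 in WT HL, and from 21.9, 18.7 and 18.2 in *phot* LL to 16.0, 22.1 and 16.6 in *phot* HL (TMM-scaled CPM). Its *phot* libraries overlapped those of WT LL or lay just under them, with log2 differences from WT of -0.42 in LL and 2.62 in HL. The averaged difference of 1.10 ± 0.13 (edgeR adjusted p = 1.28e-06) was thus positive only through the low WT HL level that the rule required.

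The G2-like factor Cre12.g495100 lay between and went from 24.7, 20.7 and 17.6 in WT LL to 2.26, 4.05 and 3.04 in WT HL, and from 11.7, 11.5 and 14.8 in *phot* LL to 12.4, 12.1 and 11.5 in *phot* HL (TMM-scaled CPM). Its *phot* libraries were below every WT LL library and above every WT HL library, with log2 differences of -0.73 in LL and 1.92 in HL. This left an averaged difference of 0.60 ± 0.12 (edgeR adjusted p = 0.000407), positive only through the low WT HL level. The MYB-related factor Cre03.g144747 went from 31.2, 19.4 and 21.4 in WT LL to 2.02, 2.25 and 2.44 in WT HL, and from 2.52, 1.95 and 1.52 in *phot* LL to 0.688, 1.77 and 1.28 in *phot* HL (TMM-scaled CPM). Here only WT LL was high, and the averaged difference was -2.20 ± 0.20 (edgeR adjusted p = 9.77e-08). None of the 17 ranked regulators of energy-dependent quenching (qE) was a member, beside 0.845% of all genes. With so short a list nothing is read from this.

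Over the whole lists, the averaged genotype difference was higher in *phot* for 25 and lower for 18 of 54 tested photoprotection genes, with a median of 0.19 on the log2 scale. For CCM genes 21 of 72 were higher and 35 lower, with a median of -0.29. For transcription factors 205 of 383 were higher and 81 lower, with a median of 0.29, and for the qE regulators 11 of 17 were higher and 2 lower, with a median of 0.30. Over all tested genes 46% were higher and 33.6% lower, with a median of 0.15.

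Among all 150 members, 96 were higher and 44 lower in *phot* averaged over both lights (edgeR, adjusted p under 0.05 over all 14251 genes), 64% and 29.3% of the members. Among all tested genes 46% were higher and 33.6% lower. Of the genes that passed, 68.6% of members and 57.8% of all genes were higher in *phot*. With library totals in place of TMM these shares were 74.6% and 77%, and the medians moved from 0.15 to 0.59 over all genes and from 1.18 to 1.63 over the members. The median averaged difference of the members was 1.18, from -6.44 to 6.04, against 0.15 for all tested genes. The remaining 10 members did not pass the threshold, and all 10 were in the class between the WT levels. The contrast is orthogonal to the light changes, but it includes the WT HL level, which had to be low. A member with equal LL levels in both genotypes therefore had a positive averaged difference. Cre12.g487050, for example, had -0.09 in LL and 2.02 averaged over both lights. The rule's minimum of 1 CPM also applied to *phot* alone. So the choice of members was not free of this contrast, and its counts and medians partly restate that choice. The classes were defined from the same levels: all 88 members near or above WT LL were among the 96, and all 38 near or below WT HL were among the 44.

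Split by light, 61 members were higher and 67 lower in *phot* in LL, beside 44.3% and 28% of all tested genes, with a median difference of -0.11 against 0.22. In HL 117 were higher and 19 lower, beside 38.1% and 35.4%, with a median of 2.51 against 0.05. The rule fixed the gap between these contrasts, so neither count is tested further. All 6 *phot* libraries lay above all 6 WT libraries in 58 members, beside 18.7% of all tested genes, and below them in 15, beside 13.9%.

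**Figure D4:**
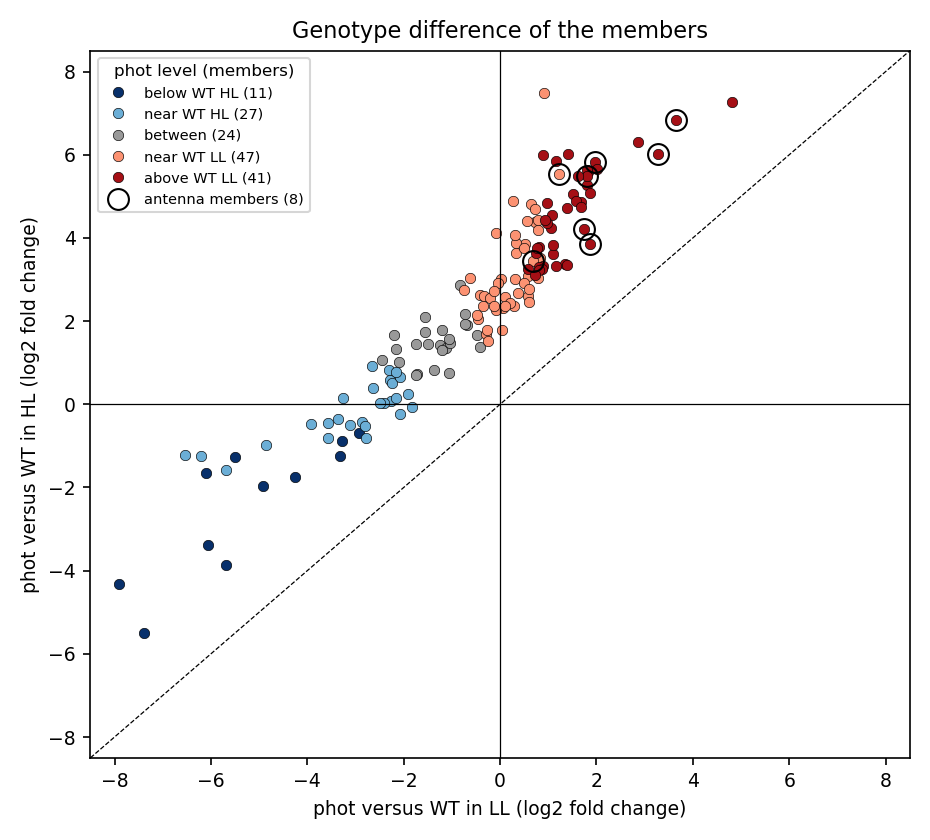
Each point is a member, with the log2 difference between *phot* and WT in LL on the horizontal axis and in HL on the vertical axis, coloured by index class, and the 8 antenna members ringed. All points lie above the dashed line of equal differences because of the rule. Along that band the members spread from -7.91 to 4.80 in LL, with the antenna members at the upper right.

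The largest drops in WT were found both in members with high and in members with low *phot* levels. Cre09.g397623 ranked first and went from 61.9, 72.3 and 69.6 in WT LL to 0.700, 0.365 and 0.566 in WT HL, and from 121, 134 and 128 in *phot* LL to 98.9, 102 and 87.9 in *phot* HL (TMM-scaled CPM). It was low in WT HL alone, where WT LL exceeded it 125-fold, and its averaged difference was 4.20 ± 0.11 (edgeR adjusted p = 2.88e-13). Cre10.g421350 ranked second and went from 143, 91.1 and 92.6 in WT LL to 2.84, 1.55 and 1.80 in WT HL, and from 1.51, 1.11 and 0.836 in *phot* LL to 0.509, 1.24 and 0.799 in *phot* HL (TMM-scaled CPM). It was high in WT LL alone, and its averaged difference was -3.88 ± 0.23 (edgeR adjusted p = 8.79e-10). The files and the study's lists give neither gene a name.

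The same contrast ran through the rest of the first 10. *LHCBM2*, *LHCBM6*, Cre01.g010832, Cre10.g452050 and Cre10.g425900 were low in WT HL only. Cre10.g452050 went from 389.7, 442 and 451 in WT LL to 21.6, 18.0 and 18.4 in WT HL, and from 1167, 1272 and 987 in *phot* LL to 1219, 1288 and 1263 in *phot* HL (TMM-scaled CPM). Cre10.g425900 went from 426, 429.6 and 447 in WT LL to 24.3, 18.1 and 20.2 in WT HL, and from 1010.2, 1052 and 832 in *phot* LL to 1191, 1237 and 1200.4 in *phot* HL (TMM-scaled CPM). Their *phot* libraries were 2.67-fold and 2.22-fold over WT in LL, with averaged differences of 3.72 ± 0.10 (edgeR adjusted p = 3.1e-13) and 3.50 ± 0.10 (edgeR adjusted p = 5.25e-13). Cre01.g010832 overlapped between *phot* and WT LL, with a mean that went from 102 ± 25.6 to 3.13 ± 0.540 in WT and from 122 ± 2.39 to 94.0 ± 20.2 in *phot* (TMM-scaled CPM, SD, n = 3).

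Cre02.g089650, Cre11.g467710 and Cre14.g611400 were, like Cre10.g421350, high in WT LL only. Cre11.g467710 went from 326, 241 and 235 in WT LL to 8.60, 9.70 and 8.77 in WT HL, and from 4.72, 3.03 and 3.79 in *phot* LL to 0.988, 4.35 and 3.13 in *phot* HL (TMM-scaled CPM). Cre02.g089650 went from 131, 88.1 and 88.5 in WT LL to 3.09, 1.55 and 2.69 in WT HL, and from 1.59, 1.45 and 1.11 in *phot* LL to 0.269, 1.51 and 1.18 in *phot* HL (TMM-scaled CPM). Cre14.g611400 went from 114, 72.0 and 79.8 in WT LL to 3.00, 2.95 and 3.64 in WT HL, and from 1.91, 1.18 and 2.03 in *phot* LL to 0.299, 1.46 and 1.41 in *phot* HL (TMM-scaled CPM). In each of these 3 genes WT LL library A was the highest and *phot* HL library A the lowest of all libraries. The averaged differences were -3.88 ± 0.23 for Cre11.g467710 (edgeR adjusted p = 1.36e-09), -3.73 ± 0.26 for Cre02.g089650 (edgeR adjusted p = 6.46e-09) and -3.63 ± 0.24 for Cre14.g611400 (edgeR adjusted p = 3.13e-09).

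Beside *LHCBM7* and *LHCB5*, the members with the highest averaged genotype differences were Cre12.g512300 and Cre14.g620702. Cre12.g512300 went from 27.5, 18.3 and 19.7 in WT LL to 2.26, 3.25 and 2.90 in WT HL, and from 643, 570.1 and 615 in *phot* LL to 434, 495 and 381 in *phot* HL (TMM-scaled CPM). It was 27.9-fold higher in *phot* in LL and 156-fold higher in HL, an averaged difference of 6.04 ± 0.14 (edgeR adjusted p = 1.55e-13). Cre14.g620702 went from 115, 162 and 88.0 in WT LL to 10.6, 10.95 and 9.37 in WT HL, and from 873, 823 and 950.5 in *phot* LL to 739, 877 and 842 in *phot* HL (TMM-scaled CPM), an averaged difference of 4.59 ± 0.14 (edgeR adjusted p = 1.5e-12). In neither gene did any WT library come near the *phot* libraries.

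At the other end, with the lowest averaged difference, Cre14.g613800 went from 291, 251 and 231 in WT LL to 27.8, 59.8 and 45.9 in WT HL, and from 1.56, 1.246 and 1.76 in *phot* LL to 0.449, 1.24 and 1.247 in *phot* HL (TMM-scaled CPM), an averaged difference of -6.44 ± 0.23 (edgeR adjusted p = 6.4e-12). Every *phot* library was below every WT HL library, and among the latter A was lowest and B highest. Cre09.g399400 went from 337, 186 and 157 in WT LL to 28.0, 32.3 and 31.5 in WT HL, and from 3.00, 3.23 and 3.97 in *phot* LL to 4.37, 2.22 and 2.27 in *phot* HL (TMM-scaled CPM), an averaged difference of -4.72 ± 0.22 (edgeR adjusted p = 7.71e-11). WT LL library A was well above B and C for this gene.

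Cre17.g702900 and Cre17.g702950 are direct neighbours on chromosome 17, 1280 bases apart, and both were far lower in *phot*. Cre17.g702900 went from 685, 724 and 927 in WT LL to 74.6, 65.4 and 62.3 in WT HL, and from 2.57, 3.43 and 3.70 in *phot* LL to 3.77, 2.96 and 3.45 in *phot* HL (TMM-scaled CPM), an averaged difference of -6.11 ± 0.13 (edgeR adjusted p = 8.8e-14). Cre17.g702950 went from 1129.5, 1284 and 1566 in WT LL to 292, 313 and 264 in WT HL, and from 17.8, 25.5 and 34.4 in *phot* LL to 16.7, 20.8 and 22.6 in *phot* HL (TMM-scaled CPM), an averaged difference of -4.77 ± 0.16 (edgeR adjusted p = 3.76e-12). In both, WT LL, WT HL and the *phot* libraries formed separate levels with no overlap, and *phot* was below even WT HL.

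There were 4 pairs of direct neighbours among the members, including *LHCBM9* with *LHCBM8*. No such count was made for other sets of genes, so nothing is read from the number of pairs. Cre04.g223200 and Cre04.g223225, 48 bases apart on chromosome 4, both lay near the WT LL level in *phot*, with averaged differences of 1.52 ± 0.10 (edgeR adjusted p = 2.49e-09) and 1.60 ± 0.10 (edgeR adjusted p = 1.4e-09). The last pair, Cre17.g705250 and Cre17.g705300, 477 bases apart, went in opposite directions. Cre17.g705250 went from 12.6, 10.9 and 11.2 in WT LL to 2.06, 1.79 and 2.02 in WT HL, and from 25.05, 22.6 and 26.7 in *phot* LL to 23.2, 24.3 and 24.2 in *phot* HL (TMM-scaled CPM). Cre17.g705300 went from 128, 78.8 and 90.2 in WT LL to 7.74, 5.90 and 5.73 in WT HL, and from 2.39, 1.68 and 2.45 in *phot* LL to 2.30, 3.13 and 2.59 in *phot* HL (TMM-scaled CPM). The averaged differences were 2.36 ± 0.08 for Cre17.g705250 (edgeR adjusted p = 2.72e-12), above all WT libraries, and -3.38 ± 0.15 for Cre17.g705300 (edgeR adjusted p = 5.17e-11), below all WT libraries.

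The members with the highest CPM in WT LL (a scale not corrected for gene length), other than *LHCBM1*, also spanned the classes. Cre02.g080200 went from a mean of 6616 ± 337 in WT LL to 1561 ± 61.3 in WT HL, and from 4929 ± 188 to 4037 ± 162 between the lights in *phot* (TMM-scaled CPM, SD, n = 3), and *phot* lay between the WT levels. Cre12.g550850 had 1577 ± 256, 147 ± 29.4, 2741 ± 232 and 2696 ± 83.9 in the same order. All 6 *phot* libraries were above every WT LL library, but its index of 1.23 put it in the class near WT LL. Cre02.g077800 had 1543 ± 69.6, 239 ± 17.8, 291 ± 21.7 and 245 ± 6.18, at the WT HL level in *phot*. Cre17.g700750 had 2810.4 ± 414, 429.6 ± 98.7, 146 ± 41.6 and 129 ± 4.59, below WT HL in *phot*. The averaged differences were 0.47 ± 0.08 for Cre02.g080200, 2.49 ± 0.12 for Cre12.g550850, -1.19 ± 0.07 for Cre02.g077800 and -3.00 ± 0.15 for Cre17.g700750, with edgeR adjusted p of 7.17e-05, 8.89e-11, 1.83e-09 and 1.89e-10. For Cre02.g080200 the log2 difference was -0.42 in LL and 1.37 in HL, so its positive average came from the low WT HL level.

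The rule was repeated 12 times with 1 library left out, and the light change was then read in that library. With each of the 6 WT libraries left out, 150 of 150 newly chosen genes had a lower level in HL than in LL when that library stood for its group. The medians lay between -2.59 and -1.97 in L. Among all genes within the *phot* bounds, 23.9% to 40.8% were lower, with medians from 0.18 to 0.52 in L. The libraries of the other light were still those the rule had used. With each of the 6 *phot* libraries left out, 112 to 140 of 150 chosen genes changed by less than 0.5 in L, against 87.4% to 92.8% of all genes within the bounds. Fewest did so without *phot* HL library A (112 of 150, against 91.0%), where the chosen genes were less level than all genes. Most did so without *phot* LL library B (140 of 150, against 87.5%). The lists shared 125 to 145 genes with the list used here, fewest without *phot* HL library B.

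**Figure D5:**
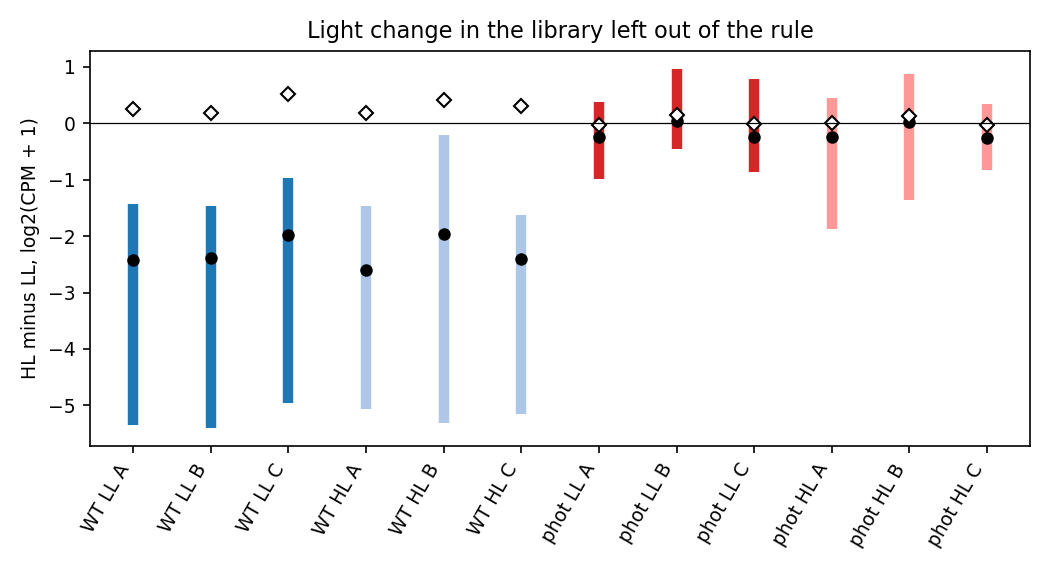
For each left-out library, the bar runs from the lowest to the highest difference in log2(CPM + 1) between HL and LL over the 150 genes chosen without it, the filled point is their median and the open diamond the median of all genes within the bounds. Every WT bar lies below 0, with medians from -2.59 to -1.97, and every *phot* bar spans 0.

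The members were spread over all 17 chromosomes, from 1 member on chromosome 15 to 21 on chromosome 3. These were 0.595% and 1.58% of the tested genes there. Across chromosomes the share ran from 0.301% on chromosome 13 to 1.77% on chromosome 11. Their median gene length was 4946.5 bases, against 4646 for all tested genes, by the RefSeq annotation of assembly Chlamydomonas_reinhardtii_v5.5.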

How the data were processed

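RNA was sequenced from 12 libraries, 3 for each combination of genotype (CC-125 or *phot*) and light. The authors prepared stranded mRNA libraries, aligned the reads with STAR to the reference transcriptome of assembly version 5 and counted reads per gene with HTSeq-count. STAR 2.5.3a is named in the submitters' processing notes, and the version of the counter is not given in the sources used here. The deposited values are raw counts per gene, 1 column per library, not pooled. Columns of per-sample values left out numbered 0. Column names gave the group but no replicate number, so the letters A, B and C follow column order within a group and pair nothing.

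Genes above 1 CPM in at least 4 libraries were tested, as in the study's methods. Fits used edgeR 4.0.16 in R 4.3.3 (glmQLFit, glmQLFTest; limma 3.58.1) with TMM factors, 1 coefficient per group over all 12 libraries and Benjamini-Hochberg adjustment over 14251 genes at 0.05. Standard errors were derived from the F statistic. On simulated data for the averaged genotype difference (14098 genes, 200 changed), 100% of genes with a log2 change of 1 or 2 were recovered and 16 of 216 calls were false. The simulation had no light effect and changed few genes, in random directions. In the real data 79.6% of tested genes passed for this contrast. So the simulation does not bear on how the scaling between genotypes affects the calls. Within-group pairs differed by more than counting noise, with a chi-square per degree of freedom of 11.3 to 185 over the members, so each library counted as 1 replicate. These values used library totals without TMM, so they also hold differences in library composition. DESeq2 1.42.0, limma-voom, other scalings, no filter, other forms of the rule and leaving out each library were alternatives.

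The members and lists were chosen with earlier results of these data known. Named were *PHOT1*, the first 10 members, the 5 highest in WT LL, the 4 highest and 4 lowest averaged genotype differences past the threshold, members on the study's lists, those at the rank limit and direct neighbours. Antenna genes outside the members were named after their values were seen. Promoters, protein matches and gene products were not analysed here. Gene symbols follow the study. Neighbours and lengths come from RefSeq, which held 17738 of 17741 identifiers. Whether its assembly has the same positions as the authors' was not examined, so no coordinates are given.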

Additional observations from a re-analysis of the deposited data

How the results depend on the processing

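No paired analysis was possible because the columns carry the group but no replicate number, so the replicate block was not run. Alternatives for the averaged genotype difference were other scalings, no filter, DESeq2, limma-voom and leaving out each library. They gave 93 to 103 members higher and 35 to 46 lower (96 and 44 with edgeR and TMM). The direction and the side of the threshold held in all 702 comparisons of 39 named members. Many of these were named for extreme values, and no member that missed the threshold was among them. Their stability therefore says little about the other members. Over all tested genes, library totals without TMM gave 2743 lower instead of 4784 and moved the median from 0.15 to 0.59 (members, 1.18 to 1.63). The share of higher calls was then 77% for all genes and 74.6% for members, against 57.8% and 68.6% with TMM and 51.2% and 67.6% with median-of-ratios factors. With each library left out, all-gene counts ran from 5538 to 6445 higher and from 4649 to 5422 lower, members near or above WT LL from 87 to 89, and members near or below WT HL from 36 to 39. With library totals these were 96 and 30. Leaving out 1 library moved the all-gene median to between 0.04 and 0.15, upper-quartile factors to 0.27 and median-of-ratios factors to 0.03. The list itself depended on the bound on *phot*: 84 of 150 genes were shared with a bound of 0.25 and 89 with a bound of 1. Pseudocounts of 0.1 and 5 shared 120 and 104, a minimum of 5 CPM 127, means of logs 144 and TMM-scaled CPM 140, and leaving out each library 125 to 145. The causes were not tested. With 3 libraries per group, small differences of members with a few counts in WT HL are poorly resolved.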

Other observations

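Within groups, single libraries stood apart for the members, a pattern seen after the values were known and given with no test. Among the 88 members with *phot* near or above WT LL, WT HL library B was the highest of its group in 68 (77.3%, against 40.3% of all tested genes) and library A the lowest in 58 (65.9%, against 41.8%). In the median member, library B was 1.36 times the mean level of the other 2. Among the 38 members with *phot* near or below WT HL, other libraries stood out. WT LL library A was highest in 24 (63.2%, against 33.7%), *phot* LL library C highest in 26 (68.4%, against 36.4%) and *phot* HL library A lowest in 26 (68.4%, against 35.4%).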
